A study of Mus musculus with 6 samples.

Results

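Genes induced by type I interferon were followed in the hearts of mice that lack cyclophilin D. The list held 35 genes, and 33 of them were measured by a probe set whose 1 annotated symbol was that gene, out of 19939 genes measured in this way on the array. Irf1 had 2 such probe sets and the other 32 genes 1 each, so 34 probe sets were read in all. Isg15 shares its probe set with another symbol and Ifi44 had no probe set under its own symbol, so neither was analysed here. Where a gene had several probe sets, the one with the highest mean over all hearts stood for it.

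The study compared 3 whole hearts of Ppif-/- mice, a global knockout backcrossed to C57BL/6 from a Sv129 background, with 3 whole hearts of wild-type (WT) C57BL/6 mice, all aged 8 weeks. Each heart was hybridised to 1 Affymetrix Gene 1.0 ST array, and each value is a log2 expression level. The stated aim was to find gene changes that precede dysfunction of the heart muscle. The labels number the hearts within each genotype, name no treatment, and the sources used here do not say whether the WT mice were littermates. Ppif, which encodes cyclophilin D, averaged 6.23 ± 0.22 in Ppif-/- hearts and 11.40 ± 0.11 in WT hearts (means ± SD, log2, n = 3 each). The arrays had medians of 6.03 to 6.11, and all 6 measured cardiomyocyte markers, among them Myh6 and Tnnt2, stood between 12.61 and 14.24 in every heart.

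Type I interferons are secreted proteins that bind the receptor pair Ifnar1 and Ifnar2 on nearly all cells. The receptor works through the kinases Jak1 and Tyk2 to form a complex that contains STAT2 and IRF9, which enters the nucleus and binds the interferon-stimulated response element in the promoters of its targets. Those targets block steps of viral replication, sense viral RNA and feed back on the pathway itself. In heart tissue without infection many of them are transcribed at a basal level in muscle, endothelial and immune cells.

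The element can be read directly in several of these promoters. RefSeq windows of 300 bases (250 before to 50 after the annotated start, build GRCm38.p6) were in the table used here for 23 of the 33 genes. They were searched on both strands for the core of the element, GAAA, then any 2 bases, then GAAA, which reads TTTC, 2 bases, TTTC on the opposite strand. It was present for 11 of the 23 genes (47.8%), against 3.99% of all 27025 genes with a window. Counted by window, it was in 11 of 26 (42.3%), against 3.44% of all 32851 windows. The 4 windows shown first belong to the genes with the smallest p among those with the core, since these carried large differences between the genotypes. Rsad2, chosen after its value was seen, is shown because its difference ran the other way. Capitals mark the core on either strand, with the sequence written 5′ to 3′ along the gene.
Ifit1, chr19:34640639-34640938, + strand: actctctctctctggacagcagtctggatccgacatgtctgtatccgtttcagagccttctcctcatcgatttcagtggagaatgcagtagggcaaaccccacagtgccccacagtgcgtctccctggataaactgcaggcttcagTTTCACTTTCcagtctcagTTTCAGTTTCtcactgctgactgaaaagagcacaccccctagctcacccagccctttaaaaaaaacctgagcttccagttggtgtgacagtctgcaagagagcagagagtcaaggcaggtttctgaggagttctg
Bst2, chr8:71537423-71537722, - strand: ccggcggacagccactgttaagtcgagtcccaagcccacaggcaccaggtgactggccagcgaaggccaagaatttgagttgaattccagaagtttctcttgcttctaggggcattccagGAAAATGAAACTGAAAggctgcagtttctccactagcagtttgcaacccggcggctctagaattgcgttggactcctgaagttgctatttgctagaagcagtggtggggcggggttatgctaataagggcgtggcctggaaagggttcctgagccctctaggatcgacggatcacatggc
Ifit3, chr19:34583279-34583578, + strand: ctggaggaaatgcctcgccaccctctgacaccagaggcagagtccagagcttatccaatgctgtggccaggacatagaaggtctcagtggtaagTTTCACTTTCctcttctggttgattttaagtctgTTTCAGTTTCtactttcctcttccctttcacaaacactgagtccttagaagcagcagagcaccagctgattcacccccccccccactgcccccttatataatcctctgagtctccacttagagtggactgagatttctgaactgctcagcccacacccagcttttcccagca
Oas1a, chr5:120907476-120907775, - strand: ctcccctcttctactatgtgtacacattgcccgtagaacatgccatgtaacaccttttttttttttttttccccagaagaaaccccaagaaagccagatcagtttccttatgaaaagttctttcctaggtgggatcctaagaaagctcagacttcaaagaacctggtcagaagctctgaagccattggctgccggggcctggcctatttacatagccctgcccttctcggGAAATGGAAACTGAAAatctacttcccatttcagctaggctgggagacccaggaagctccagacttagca
Rsad2, chr12:26456403-26456702, - strand: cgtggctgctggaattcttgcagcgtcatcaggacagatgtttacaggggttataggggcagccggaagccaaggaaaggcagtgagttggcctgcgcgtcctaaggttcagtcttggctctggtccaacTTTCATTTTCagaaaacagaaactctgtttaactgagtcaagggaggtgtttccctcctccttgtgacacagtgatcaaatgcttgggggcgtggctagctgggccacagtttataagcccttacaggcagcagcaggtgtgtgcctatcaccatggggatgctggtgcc
In Ifit1 the core occurred in 2 places, beginning 104 and 85 bases before the start, and in Ifit3 in 2 places, beginning 156 and 122 bases before it. Bst2 and Oas1a each held 2 overlapping copies, which read as a run of 3 GAAA repeats. The single core of Rsad2 began 120 bases before the start. The remaining carriers were Oas3, Ifih1, Ddx58, Eif2ak2, Stat2 and Ifitm3. The 2 windows of Ifit2 and the single windows of Oasl2, Irf7 and Lgals3bp held no exact match, which says only that these letters are not in those windows.

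Interferon-induced genes were on the whole slightly higher in Ppif-/- hearts, and the IFIT genes, Bst2 and Lgals3bp had the largest positive differences. The difference, Ppif-/- minus WT, was above 0 for 29 of the 33 genes (87.9%), compared with 49.2% of all 23410 probe sets tested, and below 0 for 4 (12.1%), compared with 50.8%. The median difference was 0.14 on the log2 scale, within a range of -0.51 to 0.86, while the median over all tested probe sets was -0.0023. Ifit2 alone passed an adjusted p of 0.05 in limma with Benjamini-Hochberg adjustment over all tested probe sets, so 1 of 33 was called higher and 0 lower. The same rule called 0.624% of all tested probe sets higher and 0.461% lower. At an unadjusted limma p under 0.05, 12 of the 33 were higher (36.4%), against 6.1% of all tested probe sets, and 1 was lower, against 6.81%. In 15 of the 33 genes (45.5%) every Ppif-/- heart lay above every WT heart, compared with 9.21% of all tested probe sets. No member had every Ppif-/- heart below every WT heart, an arrangement seen in 10.6% of all tested probe sets. The list was chosen with earlier results of these data known. Its genes were read in the same 6 hearts, so these counts do not rest on independent observations. Fewer cells of a type and less RNA per cell cannot be told apart in whole hearts, and this holds for every value below.

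**Figure D1:**
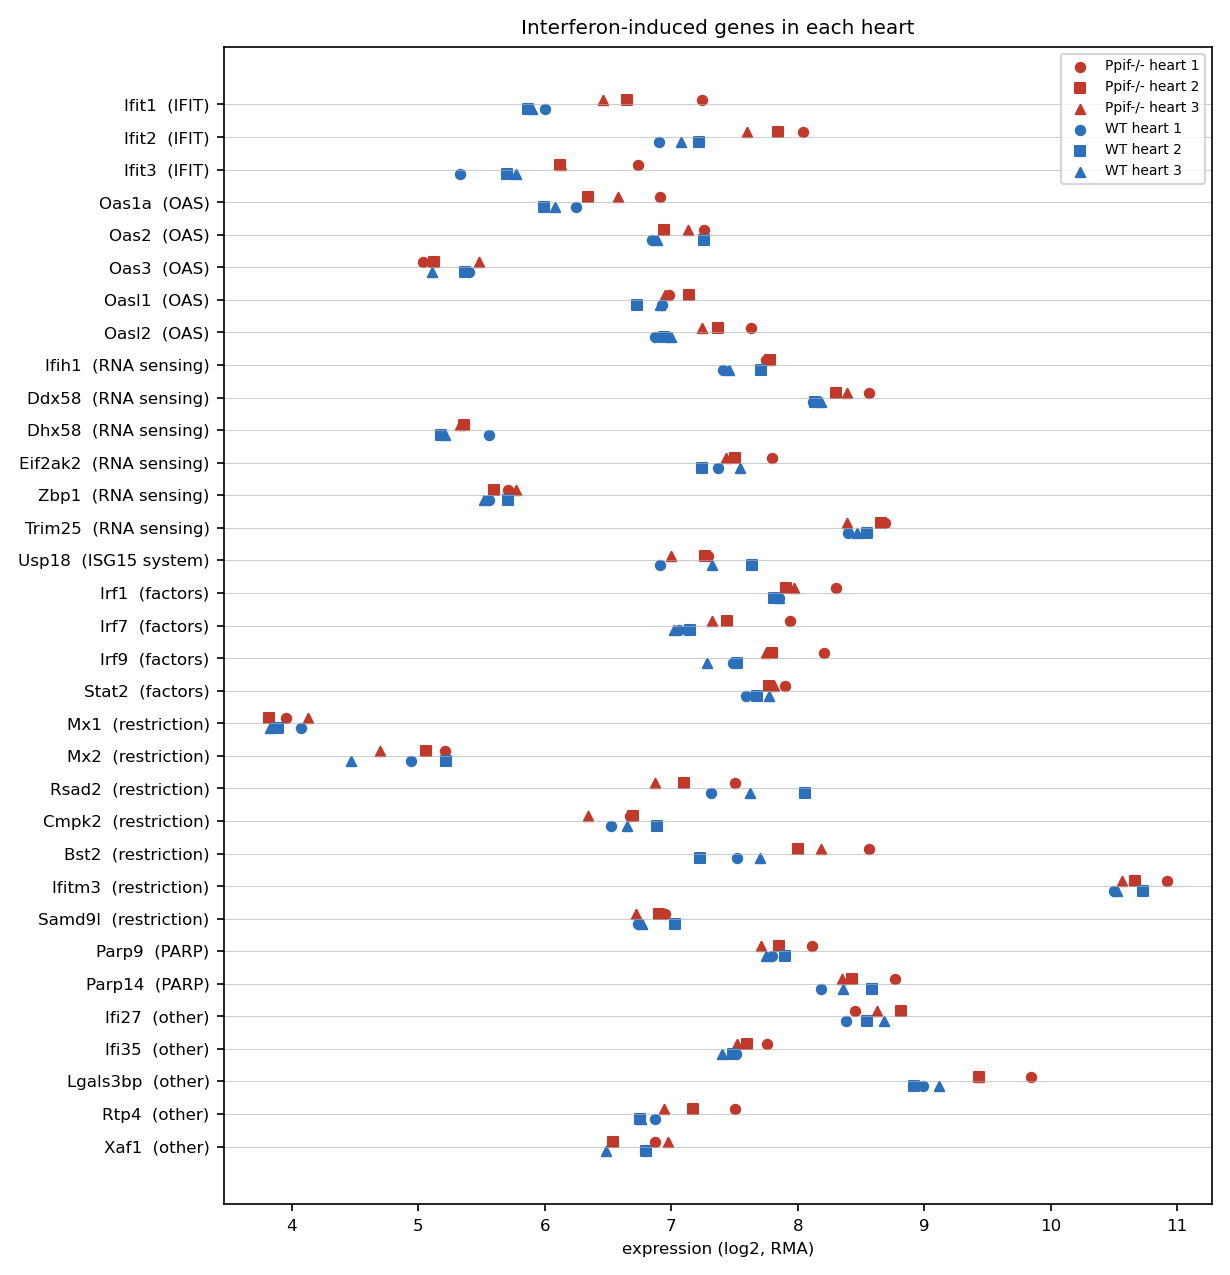
Expression (log2) of the 33 measured interferon-induced genes in each heart, with Ppif-/- hearts in red above WT hearts in blue and 1 marker shape per heart number. Ifit1, Ifit2, Ifit3, Bst2 and Lgals3bp show the widest gaps between the genotypes, and Rsad2 has its highest point in WT heart 2.

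The IFIT proteins bind viral RNA that lacks the host's cap marks and block its translation. Ifit2 stood at 8.04, 7.84 and 7.60 in Ppif-/- hearts 1, 2 and 3, against 6.90, 7.22 and 7.08 in WT hearts 1, 2 and 3 (log2). All Ppif-/- hearts lay above all WT hearts. The gene rose by 0.76 ± 0.13 (SE) on the log2 scale, or 1.69-fold (limma adjusted p = 0.0413). Ifit1 had the largest difference of the list. Its levels were 7.24, 6.65 and 6.46 in Ppif-/- hearts and 6.00, 5.87 and 5.90 in WT hearts, a difference of 0.86 ± 0.18 (1.81-fold, limma adjusted p = 0.0814). The WT hearts were close together, whereas Ppif-/- heart 1 stood apart from the other 2 Ppif-/- hearts. Ifit3 was at 6.74, 6.12 and 6.13 in Ppif-/- hearts, against 5.33, 5.70 and 5.77 in WT hearts, with a difference of 0.73 ± 0.19 (limma adjusted p = 0.146). The groups did not overlap in any of the 3 genes.

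Leaving out 1 heart moved these calls. Ifit2 kept its call without Ppif-/- heart 3 (limma adjusted p = 0.0403) and missed it without any other single heart (0.0668 to 0.137). Without Ppif-/- heart 1, Ifit1 was the member that passed, with a difference of 0.63 (limma adjusted p = 0.0366). The 3 genes lie together on chromosome 19: Ifit2 and Ifit3 have no other protein-coding gene of the RefSeq table between them, and 3 such genes separate Ifit3 from Ifit1. Among those related sequences, probe sets of near-identical copies can share RNA. The probe set of Ifit3b, a close copy of Ifit3, was dim, with 4.81, 3.98 and 3.89 in Ppif-/- hearts and 4.24, 4.34 and 4.67 in WT hearts, and the groups overlapped.

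The OAS family was mixed. Its active enzymes make short 2′-5′ linked oligoadenylates on double-stranded RNA, which switch on the nuclease RNase L. Oas1a stood at 6.91, 6.34 and 6.58 in Ppif-/- hearts and at 6.25, 5.99 and 6.08 in WT hearts, a difference of 0.50 ± 0.14 (limma adjusted p = 0.188). The closest values of the 2 genotypes were Ppif-/- heart 2 and WT heart 1, with no overlap. A probe set shared by Oas1a and Oas1g was not used, and signal from such close copies may be shared. Oasl2, an OAS-like protein with ubiquitin-like domains, was at 7.63, 7.37 and 7.24 in Ppif-/- hearts, against 6.87, 6.94 and 7.00 in WT hearts (difference 0.48 ± 0.10, limma adjusted p = 0.0923). Its neighbour Oasl1, next to it on chromosome 5, differed by 0.17 ± 0.09, also without overlap. Oas2 and Oas3, adjacent to each other on the same chromosome, overlapped between the genotypes. Oas2 was at 7.11 ± 0.16 in Ppif-/- hearts and at 7.00 ± 0.23 in WT hearts, and Oas3 at 5.21 ± 0.24 in Ppif-/- hearts and at 5.29 ± 0.16 in WT hearts (SD, n = 3 each). The 95% confidence interval of the Oas2 difference ran from -0.19 to 0.41, and that of Oas3 from -0.38 to 0.23.

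Among the sensors of viral nucleic acid, the differences were small. Ddx58 encodes RIG-I and Ifih1 encodes MDA5, helicases that detect viral RNA and signal through the adaptor MAVS. Ddx58 stood at 8.56, 8.30 and 8.39 in Ppif-/- hearts, against 8.12, 8.14 and 8.18 in WT hearts (difference 0.27 ± 0.08, limma adjusted p = 0.215). Ifih1 was at 7.75, 7.78 and 7.77 in Ppif-/- hearts and at 7.41, 7.71 and 7.46 in WT hearts (difference 0.24 ± 0.09, limma adjusted p = 0.314). Neither pair of groups overlapped, although WT heart 2 came close to the Ppif-/- hearts for Ifih1. Dhx58, the related helicase LGP2, was dim at 5.35 ± 0.02 in Ppif-/- hearts and at 5.31 ± 0.21 in WT hearts. The kinase PKR (Eif2ak2), which halts translation on double-stranded RNA, differed by 0.19 ± 0.12. Zbp1, a sensor of Z-form nucleic acids, differed by 0.09 ± 0.08, and Trim25, the ubiquitin ligase that acts on RIG-I, by 0.11 ± 0.10. The groups overlapped in the last 4 genes.

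All 4 transcription factors of the list had positive differences, and none passed the adjusted threshold. Irf9, the DNA-binding subunit of the complex formed after receptor binding, was at 8.21, 7.80 and 7.75 in Ppif-/- hearts, against 7.49, 7.52 and 7.28 in WT hearts (difference 0.49 ± 0.13, limma adjusted p = 0.156). Irf7 drives the amplifying wave of interferon alpha genes. It stood at 7.94, 7.44 and 7.32 in Ppif-/- hearts and at 7.06, 7.15 and 7.02 in WT hearts (difference 0.49 ± 0.15, limma adjusted p = 0.218). For both genes the genotypes were separate and Ppif-/- heart 1 was the highest. Stat2, another subunit of that complex, overlapped between genotypes, with 7.82 ± 0.07 in Ppif-/- hearts and 7.68 ± 0.09 in WT hearts. Irf1, which also responds to interferon gamma, differed by 0.22 ± 0.11 on its brighter probe set, without overlap, and by 0.07 ± 0.10 on its dimmer one, with overlap.

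The genes that restrict viruses at membranes or act on nucleotides ranged from 0.76 for Bst2 to -0.51 for Rsad2, the lowest difference of the list. Bst2, or tetherin, holds budding virions to the cell surface. It was at 8.56, 8.00 and 8.18 in Ppif-/- hearts, against 7.52, 7.23 and 7.70 in WT hearts, a difference of 0.76 ± 0.16 (1.7-fold, limma adjusted p = 0.0874). Rsad2 encodes viperin, a radical SAM enzyme that makes a chain-terminating nucleotide. Its levels were 7.50, 7.10 and 6.87 in Ppif-/- hearts and 7.31, 8.06 and 7.62 in WT hearts, a difference of -0.51 ± 0.21 (limma adjusted p = 0.369). Rsad2 was the 1 member with a negative difference at an unadjusted p under 0.05, and its groups overlapped, since Ppif-/- heart 1 exceeded WT heart 1. Cmpk2, the nucleotide kinase gene that adjoins Rsad2 on chromosome 12, was at 6.67, 6.70 and 6.34 in Ppif-/- hearts and at 6.52, 6.89 and 6.65 in WT hearts (difference -0.11 ± 0.13). In both of these neighbours WT heart 2 was the highest of all hearts and Ppif-/- heart 3 the lowest.

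The dynamin-like GTPase genes Mx1 and Mx2 were near the dim end, Mx1 at 3.97 ± 0.16 in Ppif-/- hearts and at 3.93 ± 0.13 in WT hearts, and Mx2 at 4.99 ± 0.26 in Ppif-/- hearts and at 4.88 ± 0.38 in WT hearts (means ± SD, log2, n = 3 each). At such levels an array gives little information on a difference. Ifitm3, which blocks fusion of viruses in endosomes, was the brightest member and overlapped, at 10.72 ± 0.18 in Ppif-/- hearts and at 10.58 ± 0.13 in WT hearts. Samd9l, a restriction factor, averaged 6.85 in each genotype, with a 95% confidence interval of the difference from -0.23 to 0.24. Usp18, the protease that removes ISG15 from proteins and dampens the receptor, was at 7.29, 7.27 and 7.00 in Ppif-/- hearts, against 6.91, 7.64 and 7.32 in WT hearts (difference -0.10 ± 0.17). WT heart 2 was again the highest of all 6 hearts.

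Of the remaining members, Lgals3bp and Rtp4 had the largest differences. Lgals3bp, a secreted galectin-binding glycoprotein, stood at 9.84, 9.43 and 9.43 in Ppif-/- hearts, against 8.99, 8.92 and 9.12 in WT hearts (difference 0.55 ± 0.12, limma adjusted p = 0.0967). Rtp4, known as a chaperone of receptors that travel through the Golgi, was at 7.50, 7.17 and 6.94 in Ppif-/- hearts and at 6.87, 6.75 and 6.76 in WT hearts (difference 0.41 ± 0.13, limma adjusted p = 0.24). Both were free of overlap, as was the leucine zipper gene Ifi35, with a difference of 0.16 ± 0.08. Ifi27, a mitochondrial protein, and Xaf1, a pro-apoptotic zinc finger protein, differed by 0.09 ± 0.12 and 0.10 ± 0.13, with overlap. Parp9 and Parp14, ADP-ribosyltransferase family genes that lie close together on chromosome 16, differed by 0.07 ± 0.11 and 0.14 ± 0.14 and overlapped as well.

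**Figure D2:**
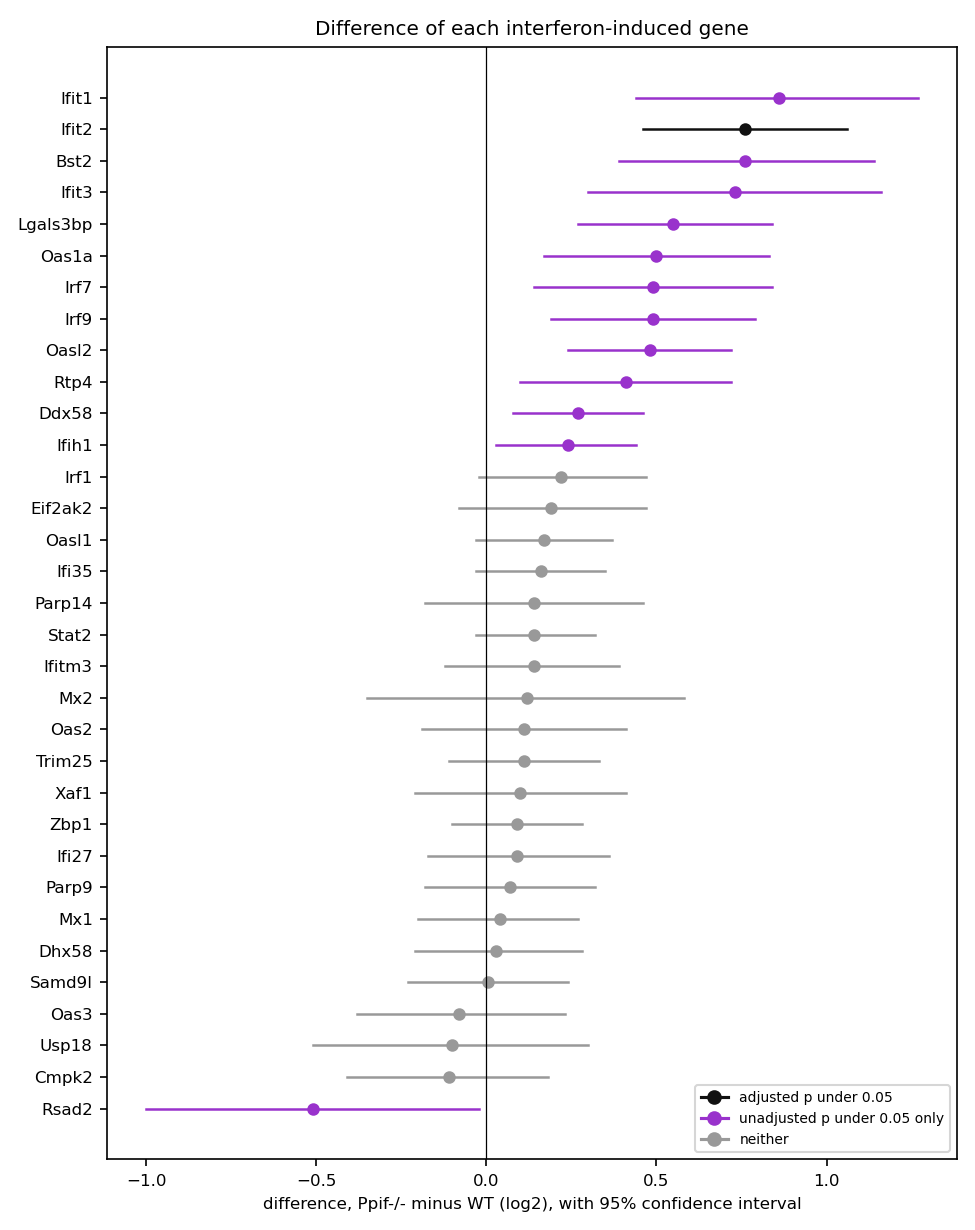
Difference of each of the 33 genes, in log2 units and taken as Ppif-/- minus WT, with its 95% confidence interval from the limma fit, ordered by size. Ifit2 alone passed the adjusted threshold, 12 genes with a positive difference and Rsad2 with a negative one had an unadjusted p under 0.05, and 20 intervals include 0.

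The hearts of a genotype were not alike across the list. Ppif-/- heart 1 was the highest of the 3 Ppif-/- hearts in 25 of the 33 genes (75.8%), whereas it was the highest in 31.6% of all tested probe sets. Among WT hearts, heart 2 was the highest in 16 of the 33 genes (48.5%), against 37.3% of all tested probe sets. With each array centred on its median these counts were 21 (63.6%, against 26.4% of all) and 16 (48.5%, against 36.5%). Taking each gene relative to its WT mean, the median over the 33 genes was 0.29 in Ppif-/- heart 1, 0.14 in heart 2 and 0.13 in heart 3, compared with -0.02, 0.07 and -0.03 in WT hearts 1, 2 and 3. What set Ppif-/- heart 1 apart was not tested.

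**Figure D3:**
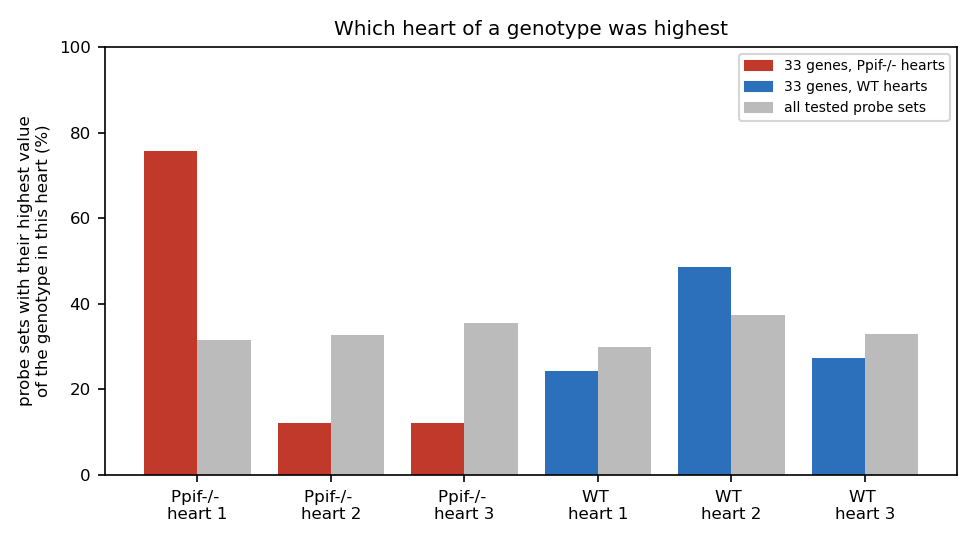
Share of probe sets, in percent, that had their highest value of a genotype in each heart, for the 33 interferon-induced genes (red for Ppif-/- and blue for WT hearts) and for all 23410 tested probe sets (grey). Ppif-/- heart 1 holds 75.8% of the 33 genes against 31.6% of all probe sets.

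Without Ppif-/- heart 1 the median difference was 0.09, and it was 0.21 without Ppif-/- heart 3 or without WT heart 2. The count of members higher at an unadjusted limma p under 0.05 stood at 11 without Ppif-/- heart 1, when 6.42% of all tested probe sets were higher by that rule. It ranged from 11 to 13 when each heart was left out in turn, against 5.36% to 6.42% of all tested probe sets. With that heart left out, every remaining Ppif-/- heart lay above every WT heart in 15 of 33 genes, against 15.8% of all tested probe sets. This count was 15 to 18 across the 6 omissions, against 13.1% to 15.8% of all tested probe sets. Genes separate in the other direction were not counted. Rsad2 was such a gene without Ppif-/- heart 1 (7.10 and 6.87, against 7.31, 8.06 and 7.62 in WT hearts). It was also such a gene without WT heart 1 (7.50, 7.10 and 6.87, against 8.06 and 7.62 in WT hearts).

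Members with and without the response element core covered similar ranges of difference. The 11 genes with the core in a window had a median difference of 0.24, from -0.51 to 0.86, and the 12 genes with windows but no core had a median of 0.20, from -0.11 to 0.76. Every Ppif-/- heart lay above every WT heart in 6 of the 11 and in 8 of the 12, against 9.21% of all tested probe sets. These values describe the windows and were not tested.

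**Figure D4:**
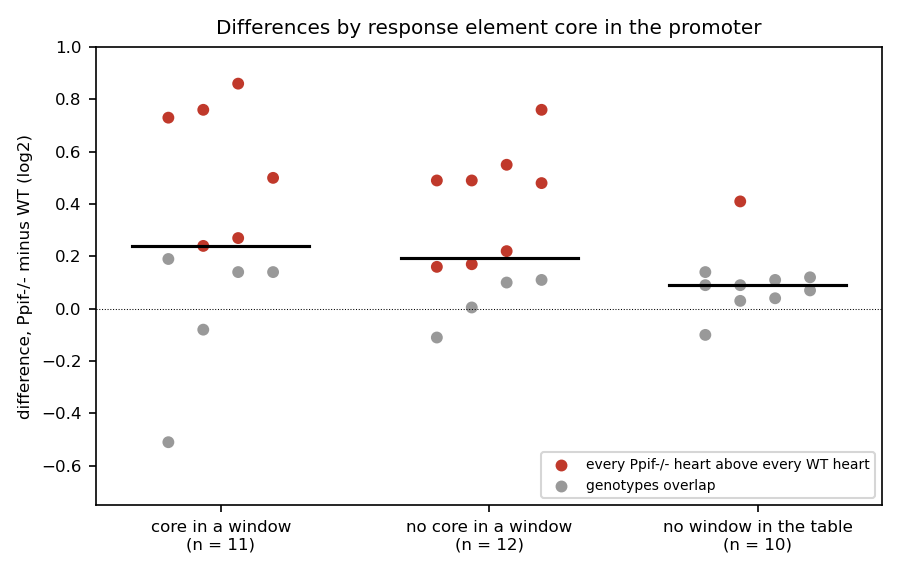
Difference of each gene, in log2 units and taken as Ppif-/- minus WT, by whether a RefSeq promoter window holds the response element core, with medians as black bars and genes whose genotypes do not overlap in red. The 11 genes with the core (median 0.24) and the 12 without it (median 0.20) cover similar ranges, the 10 genes at the right have no window in the table, and Rsad2 at -0.51 is among the genes with the core.

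The genes that lie ahead of these targets in the pathway were read from lists of their own. Of 15 measured interferon genes 0 passed in limma. At an unadjusted p under 0.05, 0 were higher, against 6.1% of all tested probe sets, and 1 was lower (6.67%, against 6.81%). Their levels stayed between 3.30 and 7.47, many at the dim end of the array. Ifnab, an interferon alpha family gene, differed by -0.27 ± 0.09 and Ifna13, an interferon alpha gene, by 0.37 ± 0.18 (limma adjusted p = 0.29 and 0.429). Ifnb1, interferon beta, is named outside the rule: it was at 4.33, 4.33 and 3.90 in Ppif-/- hearts and at 4.25, 4.03 and 4.12 in WT hearts. Its groups overlapped at a dim level.

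Among the 9 receptor and kinase genes limma called 0, while 1 was higher (11.1%, against 6.1% of all) and 2 were lower (22.2%, against 6.81%) at an unadjusted threshold of 0.05. Jak1, the kinase bound to Ifnar2, stood at 11.12, 11.04 and 11.06 in Ppif-/- hearts, against 11.18, 11.53 and 11.25 in WT hearts (difference -0.25 ± 0.10, limma adjusted p = 0.347). Jak2, a kinase of the interferon gamma receptor, differed by -0.31 ± 0.12 (limma adjusted p = 0.315). Both had every Ppif-/- heart below every WT heart. The receptor chains, named outside the rule, overlapped, with differences of -0.10 ± 0.08 for Ifnar1 and -0.05 ± 0.07 for Ifnar2.

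Of 15 sensors and adaptors 0 passed in limma, with 2 higher (13.3%, against 6.1% of all) and 1 lower (6.67%, against 6.81%) at an unadjusted p under 0.05. Tmem173 encodes STING, the adaptor that relays cytosolic DNA sensing to interferon genes. It was at 8.01, 7.86 and 7.88 in Ppif-/- hearts and at 7.47, 7.48 and 7.62 in WT hearts, a difference of 0.39 ± 0.08 (limma adjusted p = 0.065). Aim2, which senses DNA and forms an inflammasome, was at 5.35, 5.64 and 4.95 in Ppif-/- hearts and at 6.00, 5.94 and 5.87 in WT hearts (difference -0.63 ± 0.16, limma adjusted p = 0.138). The genotypes were separate in both genes, in opposite directions. Among 8 further transcription factors, limma called 0 and none had an unadjusted p under 0.05, with Stat3 at -0.21 ± 0.11 and the repressor Irf2 at -0.18 ± 0.12.

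Of 16 negative regulators, 1 was called lower in limma, against 0.461% of all tested probe sets, and 0 higher, against 0.624%. The difference was below 0 for 13 of the 16 and above 0 for 3 (18.8%, against 49.2% of all). Above 0 were 10 of the 15 interferon genes and 3 of the 9 receptor and kinase genes. Of the sensors and adaptors 5 of 15 were above 0, and of the further transcription factors 4 of 8. Ptpn11, the phosphatase SHP2 that acts on STAT proteins among others, was at 10.75, 10.69 and 10.68 in Ppif-/- hearts and at 11.08, 11.15 and 11.02 in WT hearts, and fell by 0.38 ± 0.07 (SE, limma adjusted p = 0.0499). Its groups were clearly apart, but the call was lost without any single heart (limma adjusted p = 0.101 to 0.171). The ubiquitin ligase gene Rnf125, which marks RIG-I for breakdown, differed by 0.22 ± 0.08 (limma adjusted p = 0.318).

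A wider list of 46 interferon-induced genes outside the members had 0 calls in limma, and its median difference was 0.08. At an unadjusted p under 0.05, 7 were higher (15.2%, against 6.1% of all) and 1 was lower (2.17%, against 6.81%). Every Ppif-/- heart lay above every WT heart in 8 of the 46 (17.4%), against 9.21% of all tested probe sets. B2m, the light chain of MHC class I, was at 11.72, 11.49 and 11.43 in Ppif-/- hearts, against 10.95, 11.19 and 11.04 in WT hearts (difference 0.49 ± 0.10, limma adjusted p = 0.0814). Ifi44l, an antiviral gene of unsettled biochemical role, differed by 0.31 ± 0.09 (limma adjusted p = 0.171), again with no overlap.

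**Figure D5:**
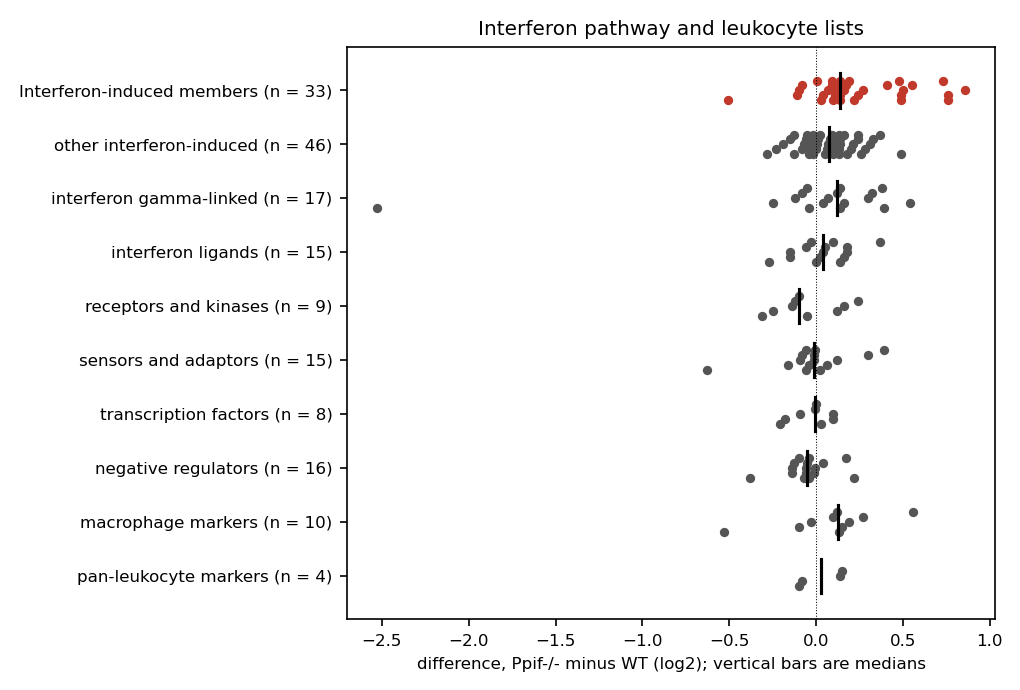
Differences, Ppif-/- minus WT on the log2 scale, for the 33 interferon-induced genes (red) and for other lists of the pathway and of leukocyte markers (grey), with medians as vertical bars. The members have a median of 0.14 and the receptors and kinases one of -0.10, and the far point at -2.53 is Gbp2b.

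Markers of immune cells were read beside these genes because whole hearts contain them. Of 10 macrophage markers, the lysosomal glycoprotein gene Cd68 passed, at 8.12, 7.86 and 8.01 in Ppif-/- hearts and at 7.46, 7.53 and 7.31 in WT hearts (difference 0.56 ± 0.09, limma adjusted p = 0.0394). The same rule called 0.624% of all tested probe sets higher. The call of Cd68 was lost without any single heart (limma adjusted p = 0.0551 to 0.145). Cd163, the haemoglobin scavenger receptor of resident macrophages, was at 7.18, 7.51 and 7.62 in Ppif-/- hearts, against 7.88, 7.98 and 8.04 in WT hearts (difference -0.53 ± 0.12, limma adjusted p = 0.0964). Over the whole macrophage list 7 of 10 differences were positive, against 49.2% of all tested probe sets. Their median was 0.13, beside 0.14 for the interferon-induced genes. At an unadjusted p under 0.05, 2 of the 10 were higher (Cd68 and Mrc1, against 6.1% of all tested probe sets) and 1 was lower (Cd163, against 6.81%). Ppif-/- heart 1 was the highest Ppif-/- heart in 9 of the 10, against 31.6% of all tested probe sets. It was also the highest in 5 of the 6 endothelial, 3 of the 6 cardiomyocyte and 0 of the 3 B cell markers. The linear levels of the 10 macrophage markers summed to 3510 to 3950 in Ppif-/- hearts and 3450 to 3540 in WT hearts. For the 4 pan-leukocyte markers Ptprc, Coro1a, Cd53 and Laptm5, limma called 0, none had an unadjusted p under 0.05, and the sums were 863 to 991 in Ppif-/- hearts and 853 to 907 in WT hearts.

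Lymphocyte and neutrophil markers were dim and none was higher at an unadjusted p under 0.05. The 7 T and NK cell markers lay between 3.76 and 6.08, the 3 B cell markers between 4.10 and 6.09 and the 5 neutrophil markers between 4.37 and 6.13, with 0 limma calls in each list. At an unadjusted p under 0.05, 1 of 7 T and NK cell, 2 of 3 B cell and 2 of 5 neutrophil markers were lower, against 6.81% of all tested probe sets. All 3 B cell and all 5 neutrophil markers had negative differences, with medians of -0.29 and -0.25. Plasmacytoid dendritic cells, strong makers of interferon alpha, were read by Siglech, at 5.63 ± 0.22 in Ppif-/- hearts and at 5.41 ± 0.11 in WT hearts, and by Ccr9, at 4.56 ± 0.29 in Ppif-/- hearts and at 4.47 ± 0.08 in WT hearts. The other 2 genes of that list, Tcf4 (0.07 ± 0.07) and Cox6a2 (-0.10 ± 0.06), are also transcribed in other heart cells. Cox6a2 had every Ppif-/- heart below every WT heart, an arrangement seen in 10.6% of all tested probe sets. Of the 4 genes of that list limma called 0, with 3 differences positive and 1 negative. The 6 endothelial markers gave 0 limma calls. Of the 6 fibroblast markers Pdgfra was called lower (-0.44 ± 0.06, limma adjusted p = 0.0246), against 0.461% of all tested probe sets. Its call was lost without any single heart (limma adjusted p = 0.0693 to 0.0991). Differences were negative for 4 of the 6 and positive for 2, Col1a1 (0.21 ± 0.11) and Col1a2 (0.27 ± 0.13), with a median of -0.06. What part these cells had in the levels of the interferon-induced genes was not tested.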

How the data were processed

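The authors deposited 1 log2 level per probe set and heart, summarised by RMA per the submitters' processing notes. Software version and filters were not given in the sources used here, nor was a batch or scan date. RMA compresses differences at low signal. The levels entered the fit unaltered.

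Gene symbols came from the platform's annotation, matched to the RefSeq gene table of GRCm38.p6 by Entrez identifier (21698 of 21789 with 1 symbol). The 23410 of 35557 probe sets with at least 1 symbol entered lmFit and eBayes of limma 3.58.1 (R 4.3.3) with genotype as the only term, 2-sided, adjusted by Benjamini-Hochberg over all of them, threshold 0.05. Differences are Ppif-/- minus WT with the SE of the fit. With 3 hearts per genotype an exact permutation test of 1 gene cannot reach that threshold. Each p-value weighs a difference against the spread between these hearts within a genotype, which eBayes moderates using all tested probe sets. Precision is limited by the number of arrays.

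Members and lists were chosen with earlier results of these data known. All measured members are named. From each other list the genes past the threshold are named, or the 2 with the smallest p, except for marker lists given as counts, and any further gene named was chosen after its values were seen. Promoters are shown for members with the core, by smallest p, and for Rsad2. The labels do not say whether hearts with the same number pair the genotypes, so the replicate block was an alternative. Deviations from the group means correlated at -0.0767, -0.0608 and 0.118 for numbers 1, 2 and 3. With 3 hearts per genotype these correlations cannot settle whether the hearts were paired. In simulated data the fit recovered 50% of changes of 0.5 on the log2 scale and 100% of those of 1, 2 or 3. Of its calls 5.91% were false, and 0 calls were made with nothing changed. The simulated spread mixed that of each probe set with that of all, so these shares need not hold for the members. Alternatives were a replicate block, a filter on dim probe sets, other sets of probe sets, quantile normalisation, median centring, a variance trend, robust eBayes, array weights and leaving out each heart.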

Additional observations from a re-analysis of the deposited data

How the results depend on the processing

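The number of interferon-induced genes called higher was 1, and it became 0 with the replicate number as a block or with all probe sets of the table, 2 of 25 on the brighter probe sets (Ifit2 and Oasl2), 4 with a variance trend (Ifit1, Ifit2, Bst2 and Lgals3bp) and 12 at an unadjusted p. It ran from 0 to 1 without each heart in turn. The number called lower was 0 in every adjusted fit and 1 at an unadjusted p. Under the replicate block the adjusted p of Ifit2 was 0.0946, and of the numbers only 3 marked hearts that correlated best with each other. The median difference stayed between 0.09 and 0.21. Among 520 values of single members under alternatives, 19 changed sign, for 9 members close to 0, and the cause was not tested. Samd9l was at -0.0042 with quantile normalisation and -0.01 with centred arrays. With array weights Dhx58 was at -0.01, Mx1 at -0.03 and Usp18 at 0.03. Without 1 heart, Oas3 ran from -0.21 to 0.0097, Samd9l from -0.05 to 0.10, Parp9 from -0.04 to 0.16, Mx1 from -0.05 to 0.11, Cmpk2 from -0.20 to 0.0025, Dhx58 from -0.03 to 0.15, Usp18 from -0.29 to 0.07, Mx2 from -0.09 to 0.29 and Xaf1 from -0.0029 to 0.23. Omitting each heart at the unadjusted threshold was chosen after seeing the data.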

Other observations

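Of 17 measured genes linked mainly to interferon gamma, 0 were called higher and 1 lower in limma, against 0.624% and 0.461% of all tested probe sets. Their median difference was 0.12, and 11 of the 17 were positive. At an unadjusted p under 0.05, 3 were higher (17.6%, against 6.1% of all) and 1 was lower (5.88%, against 6.81%). The guanylate-binding protein gene Gbp2b was at 4.76, 5.10 and 4.99 in Ppif-/- hearts, against 7.61, 7.56 and 7.26 in WT hearts, and its difference was -2.53 ± 0.12 (limma adjusted p = 8.53e-05). Its relative Gbp9 was at 8.90, 8.69 and 8.63 in Ppif-/- hearts and at 8.21, 8.58 and 8.27 in WT hearts, a difference of 0.39 ± 0.12 (limma adjusted p = 0.215). The other 2 genes higher at the unadjusted threshold, named outside the rule, were the chemokine gene Cxcl9 (0.54 ± 0.21, limma adjusted p = 0.317) and Gbp5 (0.30 ± 0.11, limma adjusted p = 0.292). In both, every Ppif-/- heart lay above every WT heart.

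Nlrc5, the activator of MHC class I genes, was chosen after its values were seen because the array reads it through 19 probe sets. Of these, 17 had a positive difference, against 49.2% of all tested probe sets. At an unadjusted p under 0.05, 10 were higher (6.1% of all) and 0 were lower (6.81% of all). In limma 1 passed as higher (adjusted p = 0.0148), against 0.624% of all. The differences ran from -0.13 to 0.72. The brightest of them differed by 0.14 ± 0.08 (limma adjusted p = 0.52). These probe sets read 1 gene and are not independent.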
